A study of Homo sapiens with 13 samples.

Results

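Chromosome 18 carried 17278 of the 381020 accessible regions listed for 2 small cell lung cancer (SCLC) lines, 7620 of the 206927 in H82 and 9658 of the 174093 in H146. Every row of both region lists that lies on chromosome 18 of hg38 was taken. The chromosome was itself selected on the H82 to H146 ratio of region counts, which was the lowest of the 24 chromosomes, so that ratio and everything built on the same counts are given as a description with no test. H82 and H146 are established human SCLC lines, H82 of the subtype marked by the transcription factor NEUROD1 and H146 of a different one. Their open chromatin was mapped by ATAC-seq, where Tn5 inserts sequencing adapters into accessible DNA, in untreated cells and after 14 days of 100 nM FHD-286, which blocks SMARCA4 and SMARCA2, the ATPases of the SWI/SNF chromatin remodelling complex. H146 had 4 untreated and 3 treated libraries, and H82 had 3 untreated and 3 treated libraries, all labelled wild type. The deposited lists, called atlases here, pool all libraries of a line, so untreated and treated cells cannot be told apart, and each line gives 1 value with no replicate. A call in a single library of a line was enough to enter its atlas, and read depth per library was unknown.

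Chromosome 18 is a gene-poor chromosome with a short and a long arm. It is known for genes of TGF-beta signalling (SMAD2, SMAD4, SMAD7), of apoptosis (BCL2, PMAIP1), for the SWI/SNF subunit gene SS18, for clusters of desmosomal cadherin genes and of SERPINB protease inhibitor genes, and for several genes of neuronal and neuroendocrine cells, among them GRP, which encodes gastrin-releasing peptide, and DCC, a netrin receptor. Accessible regions far from genes are often enhancers, to which transcription factors bind in a manner that depends on the cell type. The basic helix-loop-helix factor NEUROD1 binds E-box sequences, and its gene had a region at the start in H82 and none in H146.

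To show what the line-only regions look like, 3 windows of at most 300 bp are given, taken from regions that did not overlap any region of the other line, lay within 10 kb of the start of transcription (TSS) of a gene described below, more than 1 kb from any annotated TSS, and held no exon. They are among the regions with the most word matches in each line, so the matches in them are no evidence of frequency. Capitals mark exact matches, on either strand, to CAGATG and CAGCTG (both E-boxes), TAATCC (a core of OTX2 sites) and TGTTTAC (a forkhead, FOXA, word). All are written 5′ to 3′ on the plus strand of hg38. The H82 window lies in an intron of ROCK1 (chr18:21104039-21104338), and the H146 windows in introns of SETBP1 (chr18:44687588-44687876) and SERPINB5 (chr18:63480912-63481211).
ROCK1 intron, H82 only: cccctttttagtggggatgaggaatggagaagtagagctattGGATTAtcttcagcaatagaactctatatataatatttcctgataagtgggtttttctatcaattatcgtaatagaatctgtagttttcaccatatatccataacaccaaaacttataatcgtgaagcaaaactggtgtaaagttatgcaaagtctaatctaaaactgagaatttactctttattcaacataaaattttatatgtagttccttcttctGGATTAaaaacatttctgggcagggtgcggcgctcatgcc
SETBP1 intron, H146 only: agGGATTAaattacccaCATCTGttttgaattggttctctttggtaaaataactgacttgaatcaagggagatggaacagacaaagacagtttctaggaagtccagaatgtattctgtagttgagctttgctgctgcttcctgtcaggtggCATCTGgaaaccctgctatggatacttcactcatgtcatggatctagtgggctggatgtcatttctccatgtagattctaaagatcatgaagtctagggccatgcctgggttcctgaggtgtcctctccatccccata
SERPINB5 intron, H146 only: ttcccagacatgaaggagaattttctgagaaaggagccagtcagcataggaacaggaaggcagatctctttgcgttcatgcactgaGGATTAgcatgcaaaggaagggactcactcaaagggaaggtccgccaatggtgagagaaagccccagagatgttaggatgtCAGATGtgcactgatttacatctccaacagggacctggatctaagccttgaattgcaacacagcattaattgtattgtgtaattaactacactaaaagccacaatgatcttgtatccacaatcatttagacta
The ROCK1 window held 2 matches to TAATCC and no E-box of these forms. The SETBP1 window held 2 matches to CAGATG and 1 to TAATCC, and the SERPINB5 window 1 to each.

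A feature of both atlases bears on all results and is given first. Where exactly 1 H82 region and 1 H146 region overlapped each other and no other, a 1-to-1 site, the edges of the pair often fell on the same base. On chromosome 18, 2873 of 5926 such pairs (48.5%) began on the same base, whereas each of the 20 start offsets from 1 to 10 bp to either side was met by 0 to 23 pairs, with a median of 9. Ends behaved alike, with 2899 pairs on the same base. Over the 24 chromosomes, 30.4% of the 113588 pairs began on the same base. As a result 1834 regions of chromosome 18 were identical in both atlases, which is 24.1% of its H82 and 19.0% of its H146 regions. These 1834 regions had a median width of 339 bp (interquartile range 234 to 680), and 235 of them had the narrowest width of 200 bp. Identical regions stood at 22.8 per Mb on chromosome 18, the highest density of the 24 chromosomes, against 6.21 per Mb over all of them. A start or an end base was shared with some region of the other atlas by 55.9% of H82 and 43.4% of H146 regions of chromosome 18, against 25.3% and 29.99% over all chromosomes. The source of the shared bases was not tested. Headline values are therefore also given without every region that shares a start or end base with the other line, which left 3364 H82 and 5462 H146 regions on the chromosome. That removal takes out overlapped regions only, 4256 in H82 and 4196 in H146, so it lowers the shared fractions by construction. With near-equal numbers removed, a count ratio below 1 also falls by construction. The 1834 identical pairs are removed too, which moves the median width ratio away from 0. A gene whose regions in 1 line all share an edge base can become a gene of the other line only.

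H82 had fewer regions than H146 on chromosome 18, and yet chromosome 18 was not poor in H82 regions. There were 94.8 H82 and 120.2 H146 regions per Mb over its 80.4 Mb, against 67.0 and 56.4 per Mb over the 24 chromosomes. H146 was denser here than on any other chromosome, and H82 was denser only on chromosomes 17, 19 and 20. The H82 to H146 ratio was 0.789, against 1.19 over all chromosomes, a relative log2 ratio of −0.59 (95% exact binomial interval −0.63 to −0.55, counting error only). Chromosomes 8 (−0.35) and 10 (−0.32) came next. With 3.31 protein-coding genes per Mb, chromosome 18 ranked 22 of 24 in gene density, so its region density did not go with its gene density. Regions covered 7.36% of its bases in H82 and 10.1% in H146. On covered bases the relative log2 ratio was −0.73. Without regions sharing an edge base it was −1.04 (−1.10 to −0.98), the lowest of the 24 chromosomes. Removing near-equal numbers from both lines lowers this ratio by construction, so the value is no separate support. H146 stayed the densest on chromosome 18 at 68.0 per Mb, while H82, at 41.9 per Mb, ranked 16.

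**Figure D1:**
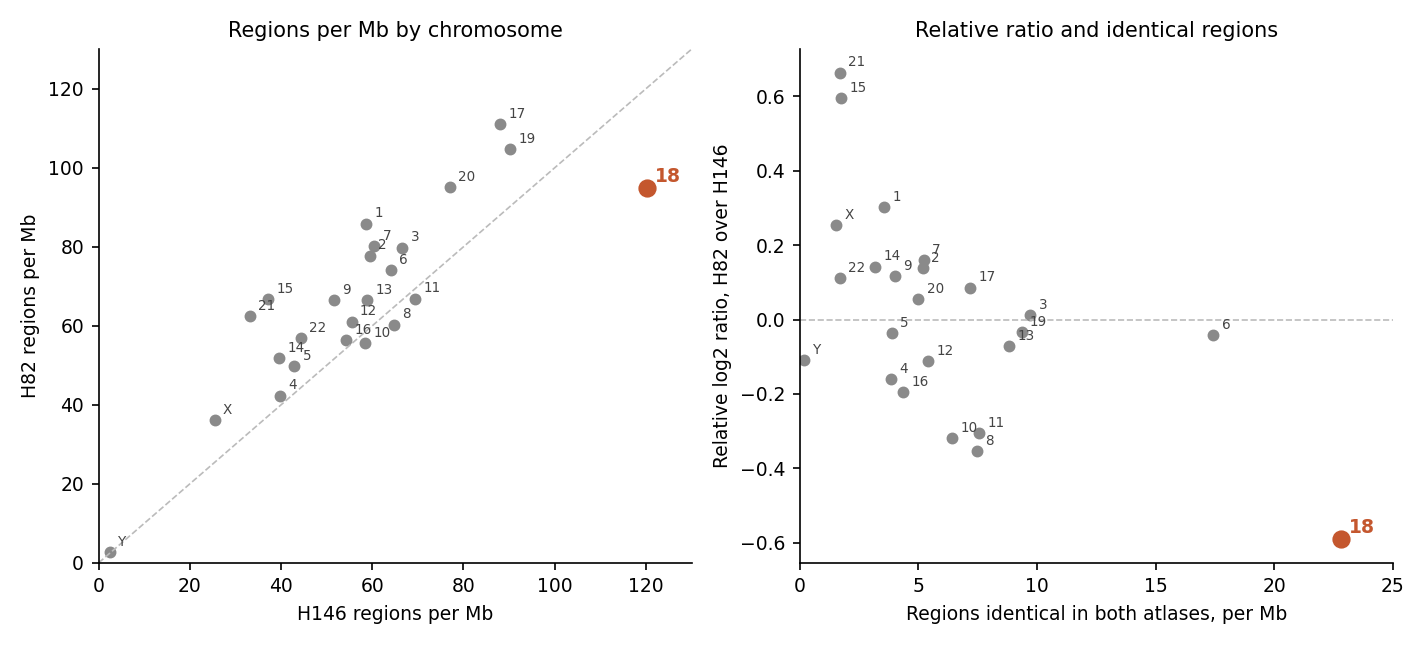
Left, H82 against H146 regions per Mb of each chromosome (1 point each, dashed line at equal density). Right, the relative log2 ratio of H82 over H146 regions against the number of regions identical in both atlases per Mb. Chromosome 18, in orange, stands at 94.8 and 120.2 regions per Mb, with the lowest relative ratio (−0.59) and the highest density of identical regions (22.8 per Mb). The relation of these measures over chromosomes was not tested.

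The regions that H82 did list on chromosome 18 were nearly all listed in H146 too. Of the H82 regions, 6768 (88.8%, exact binomial interval 88.1 to 89.5) met an H146 region over at least 1 bp, the highest share of the 24 chromosomes, against 59.3% over all of them. Of the H146 regions, 6351 (65.8%, 64.8 to 66.7) overlapped an H82 region, which ranked 20, against 70.5%. H82-only regions numbered 852, or 10.6 per Mb, against 27.3 per Mb over all chromosomes, and only chromosome Y had fewer per Mb. H146-only regions numbered 3307, or 41.1 per Mb, the highest of all chromosomes, against 16.6 per Mb. H82 regions overlapped by H146 were also denser than on any other chromosome, at 84.2 per Mb against 39.7. Without regions sharing an edge base, 68.2% of H82 and 39.2% of H146 regions overlapped the other line, the highest and the lowest share of the 24 chromosomes. That removal takes out overlapped regions only, so these shares and their ranks are no separate support.

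Width separated the lines further. At 1-to-1 sites the H146 region was the wider in 3745 cases, the H82 region in 344, and 1837 pairs had equal widths. The median log2 ratio of H82 to H146 width was −0.11, against −0.055 over all chromosomes. By this median the chromosome was not extreme, since 7 chromosomes had a lower one. By the count of pairs it was more one-sided. The H82 region was the wider in 344 of its 5926 pairs, against 781 of 5646 on chromosome 8 and 719 of 4878 on chromosome 10. Pairs of equal width hold the median near 0. Without regions sharing an edge base the median log2 width ratio was −0.47. That removal takes out the identical pairs, which moves the ratio away from 0 by construction, so −0.47 is no separate support. Over all regions the medians were close, at 468 bp in H82 (interquartile range 292 to 934) and 478 bp in H146 (287 to 985). H146 regions overlapped by H82 had a median of 706 bp, whereas H146-only regions had a median of 300 bp, and 407 of them were 200 bp wide. H82-only regions had a median of 392.5 bp. Regions of at least 5000 bp numbered 47 in H82 and 112 in H146, and 46 and 112 of them overlapped the other line.

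In H82 the narrow regions set chromosome 18 apart. Of its 504 H82 regions of 200 bp, 463 (91.9%, 89.1 to 94.1) overlapped an H146 region, against 37.8% on the other autosomes. Of these 463, 235 were identical in both atlases. The part of shared edge bases in the shares by width was not tested. For H82 regions of 300 to 499 bp the shares were 83.1% and 50.3%, and for those of 2000 to 4999 bp 98.5% and 90.4%. H146 regions showed no such gap. Of its 667 H146 regions of 200 bp, 39.0% (35.3 to 42.8) overlapped H82, against 42.9% on the other autosomes, and for those of 500 to 999 bp the shares were 80.5% and 85.2%.

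**Figure D2:**
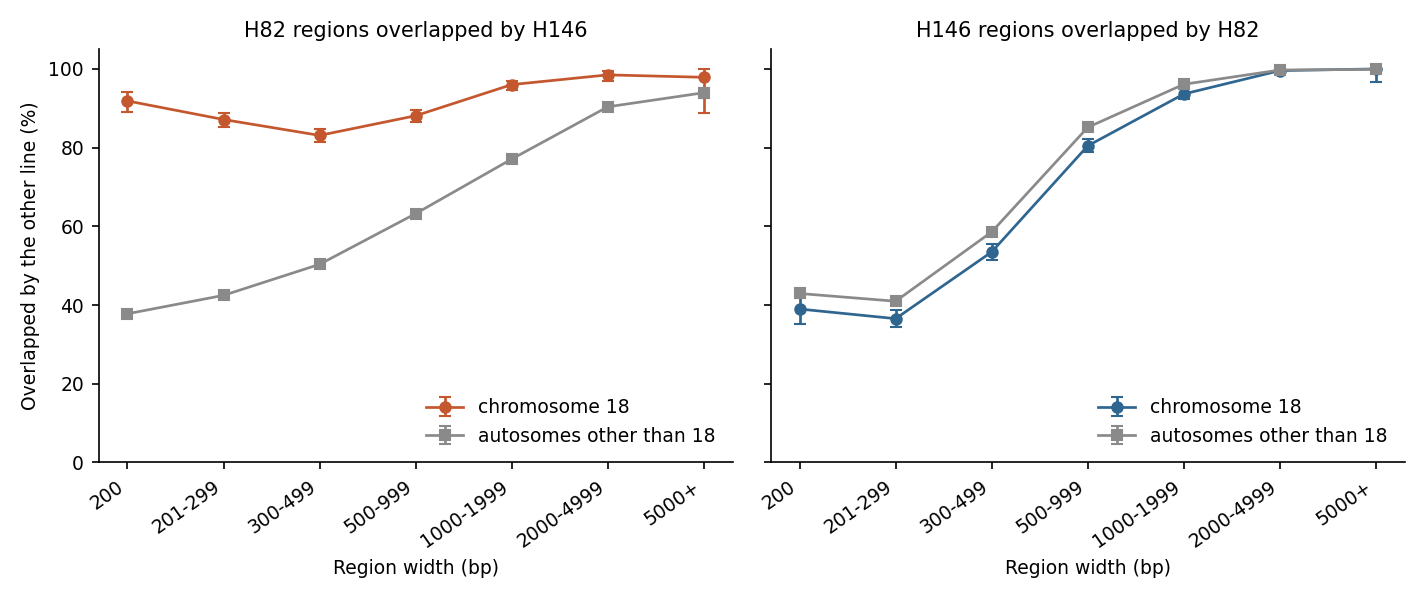
Share of H82 regions overlapped by H146 (left) and of H146 regions overlapped by H82 (right) by region width, for chromosome 18 (circles) and the other autosomes (squares), with 95% exact binomial intervals that cover counting error only. Narrow H82 regions of chromosome 18 lie far above the other autosomes (91.9% against 37.8% at 200 bp), while H146 regions of chromosome 18 lie slightly below them up to 1999 bp. Regions identical in both atlases are included, 235 of them 200 bp wide.

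The lower H82 count ran along nearly the whole chromosome. Of 81 bins of 1 Mb, 77 held at least 10 regions of both atlases together, and in 69 of these (89.6%) H82 had fewer regions than H146. Over all chromosomes this held for 30.4% of 2884 bins. The share was highest on chromosome 18, followed by chromosomes 8 (62.5%) and 10 (59.4%). It was 90.8% without regions sharing an edge base, but near-equal numbers were removed from both lines, so this is no separate support. H82 bins held 9 to 282 regions (median 85) and H146 bins 4 to 275 (median 111), and 30 H82 against 50 H146 bins held 100 or more. The overlapped share of H82 regions had a median of 90.7% over bins, and that of H146 regions 64.8%. H146-only regions outnumbered H82-only regions in 71 of the 77 bins, and 5 bins had no H82-only region at all. The median width was lower in H82 in 41 bins, while the median width ratio at 1-to-1 sites was below 0 in 65 bins, 0 in 11 and above 0 in 1.

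The exceptions lay in a few places. H82 had more regions in 7 bins and an equal number in 1. In chr18:20000001-21000000, the first bin of the long arm with at least 10 regions, there were 37 H82 and 4 H146 regions, and 34 of the 37 were H82-only. The adjoining chr18:21000001-22000000 held 127 and 103 regions, with 67 H82-only, the most of any bin. On the short arm chr18:4000001-5000000 held 28 and 19, chr18:5000001-6000000 held 53 and 39, and chr18:6000001-7000000 held 40 and 36. The other two were chr18:25000001-26000000, with 48 and 40, and chr18:48000001-49000000, the densest bin of either line, with 282 and 275. That last bin holds the starts of ZBTB7C, CTIF and SMAD7, and only 5 of its H82 regions were H82-only. The bins lowest in H82 relative to H146 were chr18:30000001-31000000 (32 against 59), chr18:65000001-66000000 (55 against 94, with the start of CDH7) and chr18:43000001-44000000 (59 against 98, with the starts of RIT2 and SYT4).

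**Figure D3:**
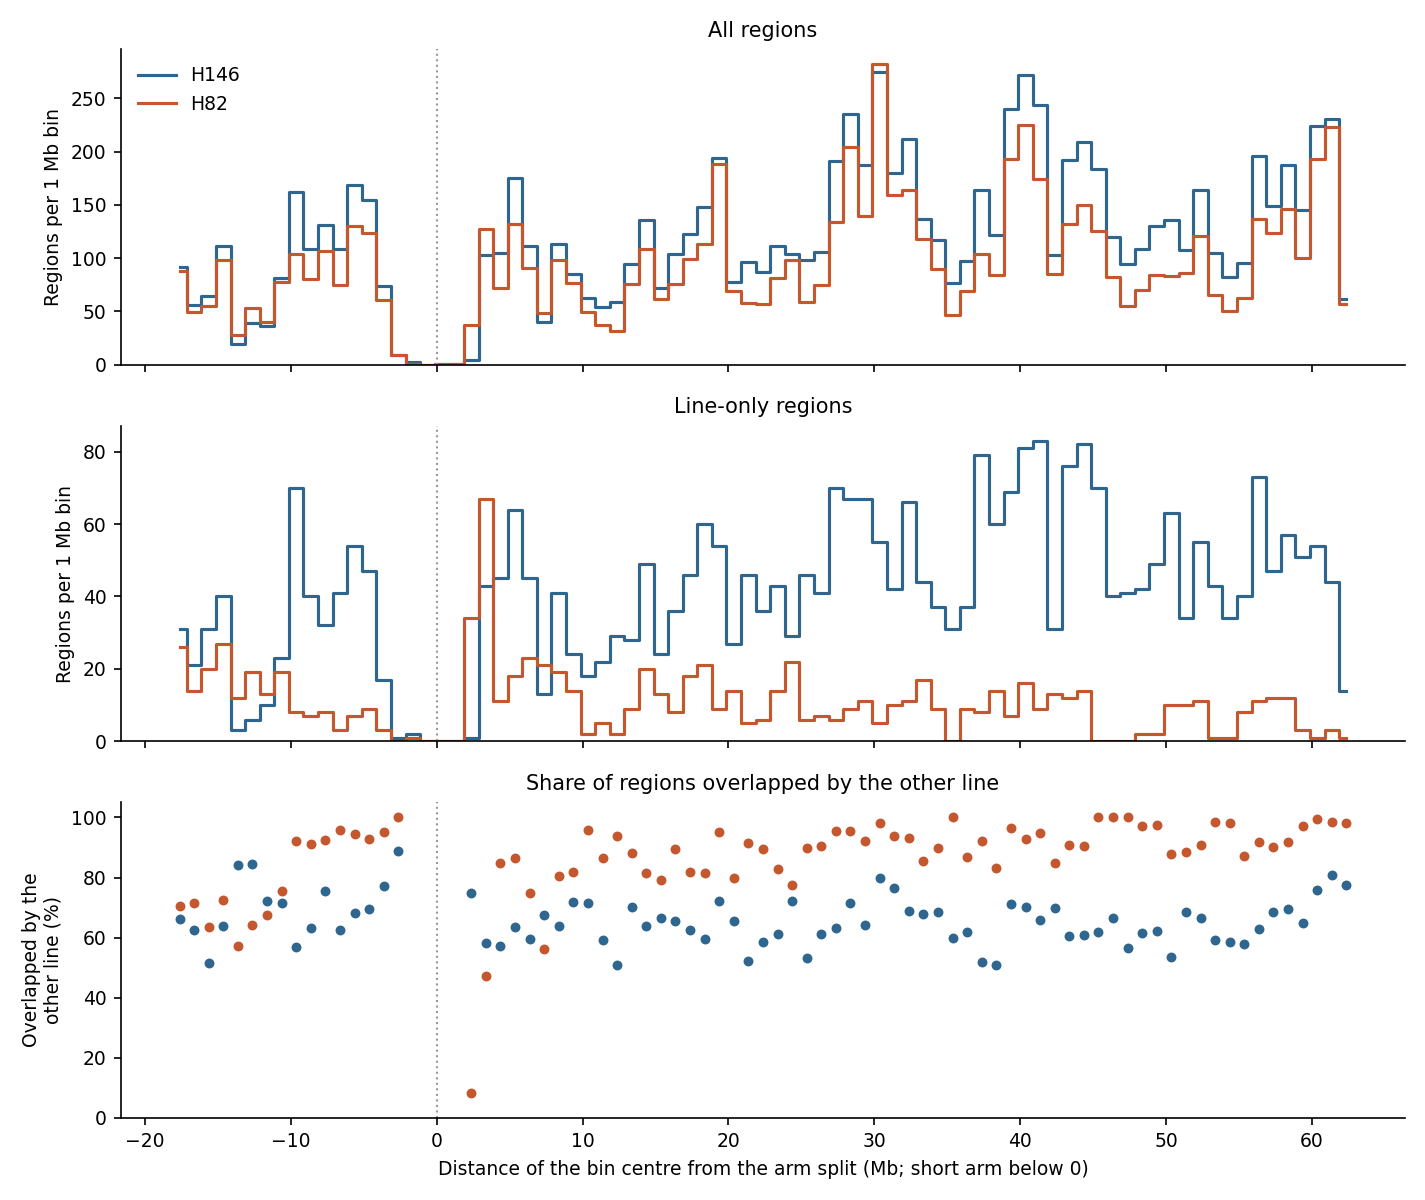
Regions per 1 Mb bin (top), line-only regions per bin (middle) and the share of regions overlapped by the other line (bottom) along chromosome 18, by distance of the bin centre from the arm split in Mb, for H82 (orange) and H146 (blue). H146 lies above H82 in 69 of 77 bins, H82-only regions peak just after the split on the long arm (34 and 67 in adjoining bins), and the H82 share there falls to 8.11%.

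Both arms, each taken as a whole, showed the lower H82 count, though it was uneven within them. The arms were split at 18137447, the middle of the longest stretch without an annotated gene. The short arm, 18p, held 1180 H82 and 1418 H146 regions (65.1 and 78.2 per Mb), and the long arm, 18q, 6440 and 8240 (103.5 and 132.4 per Mb). The relative log2 ratio was −0.51 (−0.63 to −0.40) on 18p and −0.60 (−0.65 to −0.56) on 18q. Their difference, 18p minus 18q, was 0.09 with a counting standard error of 0.062, given as a description. H82-only regions stood at 10.8 and 10.5 per Mb on the arms, whereas H146-only regions stood at 25.9 per Mb on 18p and 45.6 on 18q.

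Within the arms, H82-only regions were unevenly spread, as 6 stretches chosen after the values were seen show. They were densest at 20 to 27 Mb (27.6 per Mb) and at 0 to 8 Mb (18.8 per Mb), and in these stretches 68.1% and 69.3% of H82 regions overlapped H146. At 8 to 15 Mb they fell to 6.43 per Mb, and at 63 Mb to the end of the chromosome to 5.07 per Mb, with overlapped shares of 93.4% and 95.3%. The stretches at 27 to 45 Mb and 45 to 63 Mb had 10.8 and 10.0 per Mb. The share of H82 regions with an edge base shared with H146 moved with these values, from 37.9% at 20 to 27 Mb and 44.4% at 0 to 8 Mb to 62.3% at 8 to 15 Mb and 63.2% at the end. Its part in the uneven spread was not tested. The overlapped share of H146 regions varied less over the same stretches, from 61.3% to 66.9%. The lower H82 count was uneven too. At 0 to 8 Mb there were 489 H82 and 498 H146 regions (relative log2 ratio −0.28), and at 20 to 27 Mb 605 and 651 (−0.35). At 8 to 15 Mb there were 681 and 909 (−0.67), and the stretches from 27 Mb to the end had ratios from −0.60 to −0.68.

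By position relative to genes, the lower H82 count lay outside the 1 kb around a TSS. Within 1 kb of a protein-coding TSS chromosome 18 held 223 H82 and 224 H146 regions, a relative log2 ratio of −0.080 (−0.35 to 0.19) against all such regions of the genome. At 1 to 10 kb there were 500 and 692 (−0.77, −0.94 to −0.61), at 10 to 100 kb 3139 and 3922 (−0.62, −0.69 to −0.55), and farther away 3758 and 4820 (−0.56, −0.62 to −0.50). Within 1 kb of a TSS 97.8% of H82 and 95.5% of H146 regions overlapped the other line. The H82 share was 89.0%, 88.8% and 88.3% in the 3 farther classes, and the H146 share 59.1%, 66.6% and 64.6%. Line-only regions were rarely at a TSS, with 5 of 852 in H82 (0.59%) and 10 of 3307 in H146 (0.30%) within 1 kb. They were rarely so elsewhere too, at 1.36% and 0.95% on the other autosomes. Of all regions, 2.93% and 2.32% were at a TSS on chromosome 18, against 7.10% and 8.16%. Regions of chromosome 18 mostly lay far from a protein-coding TSS in both lines, though many lay inside genes. In H82 and in H146 90.5% were over 10 kb from a TSS, against 78.5% and 77.9% on the other autosomes. By their centre, 41.3% of H82 and 41.4% of H146 regions lay in introns, 4.16% and 3.87% in exons and the remainder outside protein-coding genes.

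The widest regions were mostly at the same places in both lines. In both, NFATC1, a calcium-dependent transcription factor of lymphocytes and other cells, had a region across its TSS, 13547 bp wide in H82 and 13614 bp in H146. So did ST8SIA5, a sialyltransferase of brain gangliosides, with widths of 11096 and 13220 bp. The widest H146 region, of 13822 bp, covered the start of SMAD7 (chr18:48942564-48956385), where H82 had 3 regions over 77.9% of it. Of the 5 widest H82 regions, chr18:21221512-21232361 (10850 bp), 9.87 kb from the TSS of GREB1L, overlapped no H146 region. Another, chr18:21177774-21189144 (11371 bp), was covered by H146 regions over 11.6%. The other 2 of the 3 widest H82-only regions, of 4485 and 4002 bp, lay in ROCK1. The widest H146-only region had 2136 bp, below each of these.

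Protein-coding genes of chromosome 18 nearly all had a region at their start in both lines. Of 266 genes, 229 (86.1%) carried one in both lines within 1 kb of the TSS, 5 did so in H82 alone, 8 in H146 alone, and 24 lacked one. Over all 20033 protein-coding genes 5.1% did so in H82 alone and 1.86% in H146 alone, whereas on chromosome 18 the shares were 1.88% (0.61 to 4.33) and 3.01% (1.31 to 5.84), of which only the second interval includes the share over all genes. With a window of 10 kb, 253 genes had regions in both, 0 in H82 alone (3.79% over all genes) and 7 in H146 alone (2.63%, against 1.49% over all genes), and 6 had no region. A count of 0 of 266 allows a share of up to 1.38% by the exact binomial interval. These counts come from the same atlases that chose the chromosome, and they do not support its difference. H146 had more regions than H82 within 10 kb of 152 genes, H82 of 42, and 72 were equal. Without regions sharing an edge base, 9 genes had a region within 1 kb in H82 alone, 4 of the 5 above among them, and 10 in H146 alone, with all 8 above. Within 10 kb these counts were 3 and 41. Of the 41 genes, 7 are those above. The others do have H82 regions within 10 kb, which were removed because all share an edge base. The 3 genes likewise have H146 regions that were removed.

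The 5 genes with a TSS region in H82 only had regions of 251 to 1078 bp there. The TRAPPC8 region (1078 bp) lay 510 bp from the TSS of this vesicle-trafficking gene, and the nearest H146 region lay 1196 bp away, just outside the window. At ALPK2, which encodes an alpha-kinase, a 690-bp H82 region covered the TSS, and the nearest H146 region was 3622 bp away. At CPLX4, which encodes a complexin of the synapse, a 517-bp H82 region covered the TSS and the nearest H146 region was 4411 bp away. SLC35G4 and C18orf63 had H82 regions of 251 and 476 bp at 279 and 639 bp from the TSS. All 5 had H146 regions within 10 kb, so none was without open chromatin nearby in H146. Counting the starts of all protein-coding transcripts ended the call of TRAPPC8.

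The 8 genes with a TSS region in H146 only had narrower regions, of 200 to 500 bp. SERPINB7 was the only one whose TSS base was covered, by a region of 500 bp. RNF165, a RING-type ubiquitin ligase gene, had a 497-bp region 509 bp from the TSS and 5 against 2 regions within 10 kb. CBLN2, which encodes a synaptic organizer, had a 296-bp region at 615 bp. SERPINB12, SERPINB2 and SERPINB4 had regions of 253, 467 and 200 bp, POTEC one of 469 bp, and the gene ENSG00000266997 one of 200 bp. Counting the starts of all protein-coding transcripts ended the calls of RNF165, CBLN2, SERPINB2 and ENSG00000266997, and with regions of at least 500 bp only SERPINB7 remained of the 8. SERPINB4 and SERPINB11 (2 regions each) and POTEC, ANKRD30B, CTAGE1, SERPINB2 and SLC25A52 (1 each) were the 7 genes with regions within 10 kb in H146 only, SLC25A52 being named after its values were seen. POTE, ANKRD30 and SERPINB genes belong to families of similar copies, among which reads may be placed wrongly, so their values are uncertain.

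Genes differed more in how many regions lay around them than in whether any did. ROCK1, a kinase that acts on the actin cytoskeleton, had 7 H82 and 3 H146 regions within 10 kb of its TSS at 21111813 (minus strand), with 55.0% and 17.9% of the bases covered. Its body held 52 H82 and 9 H146 regions, and 44 of the 52 were H82-only, the most of any gene. GREB1L, a gene of kidney and inner ear development that lies nearby, had 6 and 1 within 10 kb, covering 24.9% and 14.6%. These were the only genes of the gene lists with 3 or more regions more in H82. In the other direction PMAIP1, which encodes the BH3-only apoptosis protein NOXA, had 6 in H82 and 11 in H146. SYT4, a synaptotagmin of secretory vesicles, had 3 and 7, SETBP1, which binds the SET protein, 1 and 4, and KDSR, an enzyme of sphingolipid synthesis, 1 and 4. SERPINB5, the epithelial gene for maspin, had 4 and 7.

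**Figure D4:**
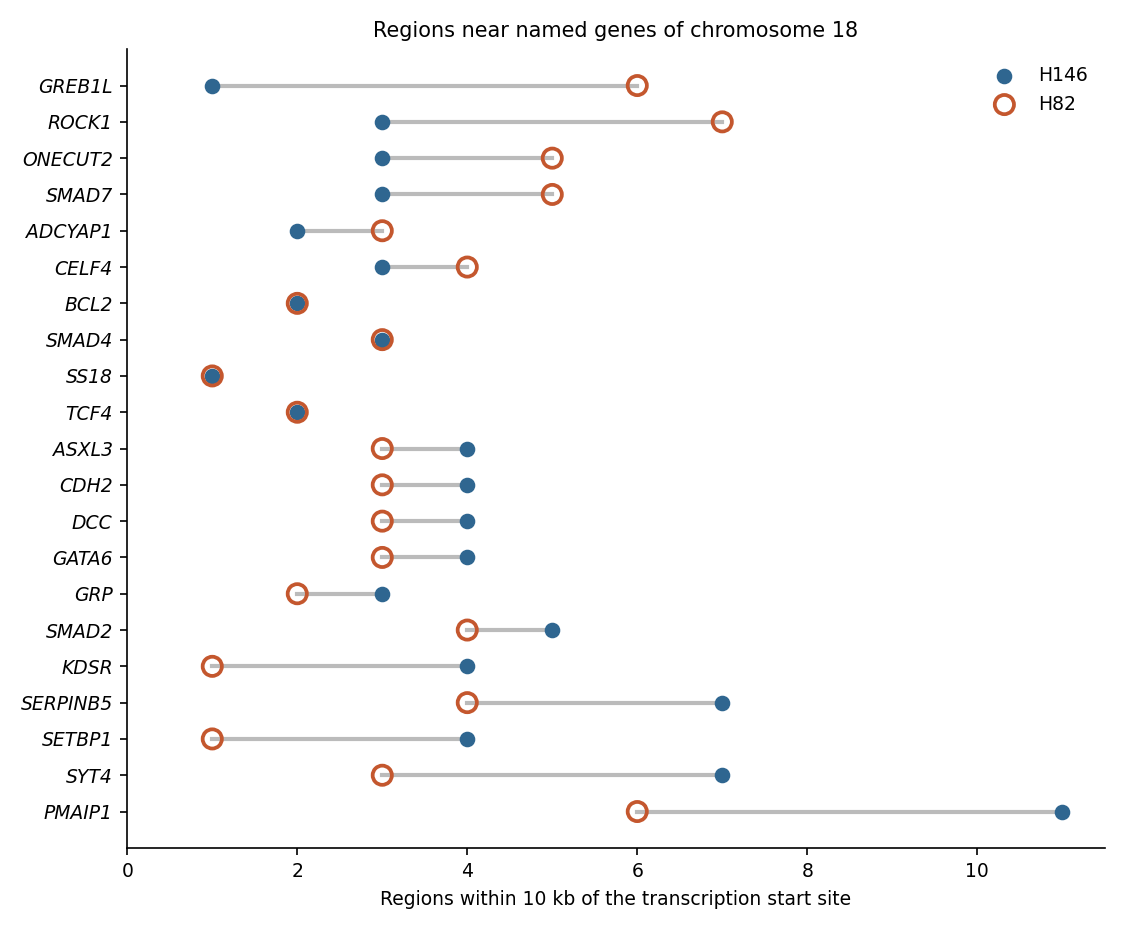
Number of regions within 10 kb of the transcription start site in H82 (orange rings) and H146 (blue points) for 21 genes of chromosome 18, ordered by the difference. GREB1L and ROCK1 have more regions in H82 (6 against 1 and 7 against 3), and PMAIP1 and SYT4 the largest excess in H146 (11 against 6 and 7 against 3).

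The genes with the most line-only regions in their bodies were mostly long, so their counts are also given per Mb of gene, beside 41.1 H146-only and 10.6 H82-only regions per Mb over the chromosome. TCF4, which encodes the E-protein partner of proneural factors, held 66 H82 and 111 H146 regions, and 58 were H146-only (131.0 per Mb). DCC held 84 and 121, with 45 H146-only (37.6 per Mb, below the chromosome's density). FHOD3, a formin gene, held 76 and 103 with 39 H146-only (80.8 per Mb) and 10 H82-only (20.7 per Mb). SLC14A2, a urea transporter gene, held 77 and 109 with 37 H146-only (78.6 per Mb). PTPRM, a receptor phosphatase gene, held 69 and 92 with 35 H146-only and 10 H82-only (41.7 and 11.9 per Mb, near the chromosome's densities). After ROCK1, most H82-only regions were in DLGAP1, a gene of the postsynaptic scaffold, which held 73 H82 and 67 H146 regions with 25 H82-only (26.1 per Mb) and 19 H146-only. COLEC12, a scavenger receptor gene, held 22 and 15, with 11 H82-only (59.8 per Mb). In ROCK1 the H82-only density was 263.2 per Mb. DLGAP1, COLEC12 and ROCK1 lie in the stretches where H82-only regions were dense.

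The genes of SCLC and of signalling pathways named here had TSS regions in both lines, and the H146 region was often the wider. A wider H146 region was not particular to these genes. On the whole chromosome H146 was the wider at 3745 of 5926 1-to-1 sites, H82 at 344, and 1837 had equal widths. At SMAD7, an inhibitor of TGF-beta signalling, the H82 region spanned 6476 bp and the H146 region 13822 bp. At ONECUT2, a neuroendocrine transcription factor gene, they were 5565 and 10872 bp, at BCL2, the apoptosis inhibitor, 4968 and 7519 bp, and at GRP 2731 and 5166 bp. At SYT4 H82 had 2 regions within 1 kb, of 1370 bp over the TSS and 1431 bp, where H146 had 1 of 4292 bp. At ADCYAP1, which encodes the neuropeptide PACAP, H82 had 3831 bp over the TSS and a second region of 285 bp, and H146 5000 bp. Widths were close at SMAD2 (3229 and 3326 bp), CDH2, which encodes N-cadherin (3591 and 3781 bp), CELF4, which encodes a neuronal RNA-binding protein (9546 and 9742 bp), ASXL3, which encodes a chromatin protein (2982 and 3104 bp), and DCC (4960 and 4939 bp). SS18 had 2096 and 2615 bp, SMAD4 a region over the TSS of 663 and 788 bp with a wider one of 1909 and 2192 bp beside it, PMAIP1 2547 and 3257 bp and GATA6, an endodermal factor gene, 4870 and 5529 bp. The exception in size was TCF4, whose annotated 5′ end had a region of 200 bp in H82 and 509 bp in H146. Because regions within 500 bp were merged, a wider region can lower a count, as at SMAD7, with 5 H82 and 3 H146 regions within 10 kb but 63.7% and 89.1% of the bases covered, and at ONECUT2, with 5 and 3 regions and 51.7% and 64.4% covered.

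The gene lists of the chromosome are set beside its 266 genes, of which 229 had a TSS region in both lines, 8 in H146 only and 24 in neither. Of the 266, H146 had more regions within 10 kb at 152, H82 at 42, and 72 were equal. No difference was tested. Of 32 neuronal and neuroendocrine genes, 30 had a TSS region in both lines, and H146 had more regions within 10 kb at 15, H82 at 7. Of 14 genes of TGF-beta, Notch and lineage signalling, 13 had a TSS region in both lines, and H146 had more at 9, H82 at 3. All 16 genes of apoptosis, cell cycle and DNA repair and all 18 of chromatin and transcription had a TSS region in both lines, with H146 more at 8 and 7, and H82 at 3 and 4. Of 23 genes of epithelial adhesion and squamous cells, 12 had a TSS region in both lines, 4 in H146 only (SERPINB2, SERPINB4, SERPINB7 and SERPINB12), and 7 in neither, among them the desmoglein genes DSG1, DSG3 and DSG4. Of these 23 genes H146 had more regions within 10 kb at 10, H82 at 2. The median difference in regions within 10 kb, H82 minus H146, was 0 for the neuronal, chromatin and epithelial lists, −0.5 for apoptosis, −1 for signalling and −1 over all 266 genes.

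Sequence words separated H82-only regions from the rest of the chromosome. Exact words were counted on both strands over whole regions and given per kb. TAATCC stood at 1.87 per kb in H82-only regions, 0.58 in H146-only regions, and 0.50 and 0.49 in overlapped H82 and H146 regions. Of 613 H82-only regions of at least 300 bp, 48.6% held it in the central 300 bp, against 13.0% of overlapped H82 regions and 15.2% of H146-only regions. Some of these matches stood in the longer word GGATTACA, which is found in Alu repeats, 218 of 808 for H82-only and 341 of 721 for H146-only regions, and outside it TAATCC remained at 1.37 and 0.31 per kb. The E-box CAGATG stood at 1.31 and 0.92 per kb in the line-only regions of H82 and H146, that is 0.52 on the log2 scale (0.37 to 0.67), and CAGCTG at 0.64 and 0.69 (−0.10, −0.30 to 0.10). TGACTCA, the AP-1 word, stood at 0.16 and 0.24 per kb (−0.56, −0.96 to −0.18).

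Set beside the other autosomes, these ratios were ordinary except for the forkhead word. The log2 ratio of H82-only to H146-only density was 1.69 for TAATCC on chromosome 18 and 1.51 on the other autosomes, and 0.52 and 0.47 for CAGATG. For TGTTTAC it was −0.42 (−0.82 to −0.04), the value nearest to 0 of the 23 chromosomes 1 to 22 and X, against −1.31 on the other autosomes. H146-only regions held 0.22 of this word per kb on chromosome 18 and 0.32 elsewhere, and H82-only regions 0.16 and 0.13. G and C made up 43.8% of the bases in H82-only regions of chromosome 18 and 46.4% in H146-only ones, against 49.0% and 47.0% on the other autosomes, and the part of base composition in the word densities was not tested.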

How the data were processed

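Per the labels and the methods of the study, the authors trimmed paired reads (Trim Galore 0.4.4), aligned them to hg38 (Bowtie2 2.3.4), removed duplicates with Picard, called peaks per sample with MACS2, removed blacklisted regions and merged peaks within 500 bp into 1 atlas per line. The deposited values are region starts, counted from 0, and ends in bp, with no score, read count or sample. Of the H146 libraries, 3 controls were sequenced in 1 batch and 1 control with the 3 treated samples in another, which the pooling hides. A 500-bp merge sets widths and can turn several sites into 1 region.

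From these files, regions were called overlapped if they met the other atlas by at least 1 bp (checked against bedtools 2.31.1, with 0 regions differing, and on simulated intervals). Chromosomes 1 to 22, X and Y were used. A region belonged to the 1 Mb bin and arm of its centre. Genes and TSSs (the 5′ end of the gene) came from GENCODE release 44, sequences from hg38, and coordinates are 1-based. Exact binomial intervals (95%) cover counting error only, and intervals of a relative log2 ratio come from that of the H82 share. No test was run, since each line has 1 atlas. Python 3.11.15 with numpy 2.4.6, pandas 2.3.3 and scipy 1.17.1 was used.

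Named genes were every gene with a TSS region in 1 line only, the 5 per line with the most regions within 10 kb and none in the other line, 16 genes of SCLC and signalling in any case, genes of 5 lists that differed by 3 or more regions within 10 kb, and the 5 per line with the most line-only regions in their bodies. The chromosome, the lists and these rules were chosen with earlier results of these data known. Alternatives changed the count used, width limits, overlap rule, bin size, arm split and gene window. A few items are not reported here.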

Additional observations from a re-analysis of the deposited data

How the results depend on the processing

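Of 46 alternatives over 10 results, 27 stayed within the counting interval of the reported value (within 1.5 times for gene counts) and 19 moved. Only the relative log2 ratio, the width ratio and the difference between the arms could change sign, and 0 of their alternatives did. Shares and gene counts cannot. A similar gene count can hold other genes: with regions of at least 500 bp, 1 of the 8 genes with a TSS region in H146 only and 0 of the 7 within 10 kb were among those found. The relative log2 ratio moved to −0.73 on covered bases and to −0.080 for regions within 1 kb of a TSS. With overlap of at least 50% of both regions, 66.9% of H82 and 52.8% of H146 regions were shared and the median log2 width ratio was −0.071, and with both regions of at least 500 bp it was −0.098. With a region over the TSS base itself, 4 genes had one in H146 only and 3 in H82 only, and with a 5-kb window 3 had one in H82 only. Within 20 kb 2 genes had regions in H146 only, as did 2 counting gene body and 10 kb to either side, and with regions of at least 500 bp 3 genes had one within 10 kb in H82 only. The cause of these moves was not tested. Leaving out regions that share a start or end base with the other line, chosen after seeing the data, gave a relative log2 ratio of −1.04, shares of 68.2% (H82) and 39.2% (H146), a width ratio of −0.47, 9 genes with a TSS region in H82 only, and 3 and 41 genes with a region within 10 kb in H82 only and H146 only. That setting removes overlapped regions by construction. The removal by itself moves the count ratio, the shares, the width ratio and the gene counts, so these values are no separate support. No paired analysis was possible because the atlases pool all libraries of a line, and for the same reason no library could be left out. Read depth is unknown, so a region missing from an atlas was not called in any library and cannot be called closed.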
